A study of Mus musculus with 6 samples.

Results

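Followed here are 10 genes of the BCL2 family in RNA sequencing libraries of mouse thymocytes: the anti-apoptotic genes Bcl2, Bcl2l1 (which encodes BCL-XL) and Mcl1, the effector genes Bax and Bak1, and the BH3-only genes Bcl2l11 (BIM), Bid, Bad, Bmf and Bbc3 (PUMA). They were chosen by gene symbol. Each of the 10 had 1 row among the 22298 genes of the deposited tables, and all 10 passed the filter on low counts that left 13934 genes for testing. The 6 libraries came from C57BL/6 mice without treatment. The 3 controls were Toxf/f, in which the Tox gene carries loxP-flanked (floxed) alleles, and the 3 others were Toxf/fCd4Cre, in which the same floxed alleles are combined with Cre recombinase under Cd4 regulatory sequences. Both groups therefore carry the floxed alleles, and none had Cre beside unfloxed Tox, so what Cre does by itself cannot be told apart from what the deletion does. Replicate 1 of each genotype was from mice aged 4 weeks, and replicates 2 and 3 were from mice aged 3 weeks. In the titles the cells are double-negative (DN) thymocytes, whereas the protocol text speaks of sorted DN2 thymocytes. Nothing in the labels says that the replicates are separate mice, so p-values measure the spread between these libraries, which may be technical.

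Proteins of the BCL2 family decide whether the outer membrane of the mitochondrion is breached, the step that commits a cell to apoptosis. BAX and BAK1 form the pores, the anti-apoptotic proteins hold them and the BH3-only proteins in check, and the BH3-only proteins carry death signals to both. In the thymus, BIM is the best-known executioner of thymocytes that react too strongly with self, BCL-XL and MCL1 sustain immature thymocytes, and BCL2 is low in double-positive (DP) thymocytes and higher in early precursors and in mature single-positive cells.

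The feature that the 10 genes share is the BH3 motif, the stretch through which the proteins bind each other. The bases that encode it are shown because 1 codon of it differs in kind between Bad, Bmf and Bbc3 and the other members. A script searched the longest complete coding sequence of each gene (GENCODE M21, build GRCm38) for a leucine codon that is followed after 3 codons, the last of them for alanine, valine, isoleucine or methionine, by a codon for glycine, alanine or serine and one for aspartate. Each of the 10 genes held this pattern exactly 1 time, whereas 9.03% of 21523 mouse genes with a complete coding sequence hold it at all. The pattern was written from known BH3 motifs, so its presence is a description and not a test. The sequences run 5′ to 3′ with 5 codons on each side of the 6-codon core, and capitals mark the codons of the leucine, the small residue and the aspartate.
Bcl2: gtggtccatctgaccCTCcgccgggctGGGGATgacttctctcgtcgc
Bcl2l1: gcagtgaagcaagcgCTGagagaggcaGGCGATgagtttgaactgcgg
Mcl1: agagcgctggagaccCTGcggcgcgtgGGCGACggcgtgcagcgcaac
Bax: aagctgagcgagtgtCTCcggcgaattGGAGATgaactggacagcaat
Bak1: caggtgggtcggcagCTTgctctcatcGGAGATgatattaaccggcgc
Bcl2l11: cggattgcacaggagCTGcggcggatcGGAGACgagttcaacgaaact
Bid: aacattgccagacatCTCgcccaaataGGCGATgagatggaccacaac
Bad: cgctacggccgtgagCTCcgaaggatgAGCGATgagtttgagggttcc
Bmf: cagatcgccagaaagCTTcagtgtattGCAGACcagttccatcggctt
Bbc3: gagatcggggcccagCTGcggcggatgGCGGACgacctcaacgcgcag

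The codon for the small residue encodes glycine in Bcl2, Bcl2l1, Mcl1, Bax, Bak1, Bcl2l11 and Bid, serine in Bad, and alanine in Bmf and Bbc3. All 10 stretches lie within a single exon. In the anti-apoptotic genes they were located in Bcl2 (chr1:106712569-106712616, minus strand, exon 1 of 2), Bcl2l1 (chr2:152829691-152829738, minus strand, exon 2 of 3) and Mcl1 (chr3:95659421-95659468, plus strand, exon 1 of 3). In the effectors they were located in Bax (chr7:45465991-45466038, minus strand, exon 3 of 6) and Bak1 (chr17:27022525-27022572, minus strand, exon 4 of 6). In the BH3-only genes they were located in Bcl2l11 (chr2:128147135-128147182, plus strand, exon 3 of 4), Bid (chr6:120897283-120897330, minus strand, exon 4 of 6), Bad (chr19:6950777-6950824, plus strand, exon 3 of 4), Bmf (chr2:118545094-118545141, minus strand, exon 4 of 5) and Bbc3 (chr7:16313758-16313805, plus strand, exon 3 of 4). The deposited tables hold 1 value per gene, so isoforms with and without these exons were not separated.

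Library totals ranged from 14550593 to 16099023 estimated counts. Tox itself, the targeted gene, was at 99.2 to 109 CPM in the controls and at 10.2 to 15.1 CPM in Cd4Cre, where CPM are counts scaled to a common library size with TMM factors. Against the DN and DN2 labels, transcripts of Cd8a and Cd4 were abundant in every library, at 1710 and 918 CPM in the control mean. The 10 DP markers, which include Cd8a and Cd4, summed to 11600 to 13000 CPM. Rag1 led that sum, at 4930 CPM in the control mean. The 10 early DN markers, such as Kit and Cd44, summed to 189 to 224 CPM, and Il2ra among them had a control mean of 96.4 CPM. Transcripts of other cells were present too: 15 epithelial and stromal markers summed to 2360 to 3070 CPM. Such sums do not measure shares of cells, and the levels below are those of whole libraries. Of the replicate pairs, Cd4Cre replicates 2 and 3 stood apart, with a chi-square per degree of freedom of 19.85 between their counts where the other pairs of one genotype had 3.7 to 9.8. Pairs across the genotypes had 9.78 to 19.14. By this measure Cd4Cre replicates 2 and 3 differed more than any pair across the genotypes. Calls on the 10 genes and on the pathway genes named below that turn on 1 library are given with and without it.

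Per transcript length, Mcl1 and Bcl2l1 were the most abundant of the 10 genes and Bcl2 was among the scarcest (the plot of FPKM values by library). FPKM, fragments scaled for transcript length and library depth, is the deposited unit that allows levels of different genes to be set side by side. In the controls Mcl1 was at 129 ± 5.09 FPKM (SD, n = 3), above 97.5% of all genes in the tables, and Bcl2l1 at 89.8 ± 0.966 FPKM. Bak1 and Bmf followed at 51.2 ± 1.22 and 50 ± 1.94 FPKM and did not differ from each other beyond their spread. Bax, at 34.4 ± 1.21 FPKM, and Bid, at 30.3 ± 2.33 FPKM, came next, and in control replicate 3 they were within 1 SD of each other (33.2 and 33 FPKM). Bcl2l11 stood at 25.4 ± 0.226 FPKM and Bad at 19.3 ± 0.995 FPKM. Bcl2, at 8.27 ± 0.861 FPKM, and Bbc3, at 5.84 ± 1.19 FPKM, closed the order. The order was identical in the 3 controls. In Cd4Cre the top 2 genes, Bax at rank 5 and Bid at rank 6 held their places in every library, and Bcl2 moved below Bbc3 to the lowest of the 10 ranks in all 3.

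**Figure D1:**
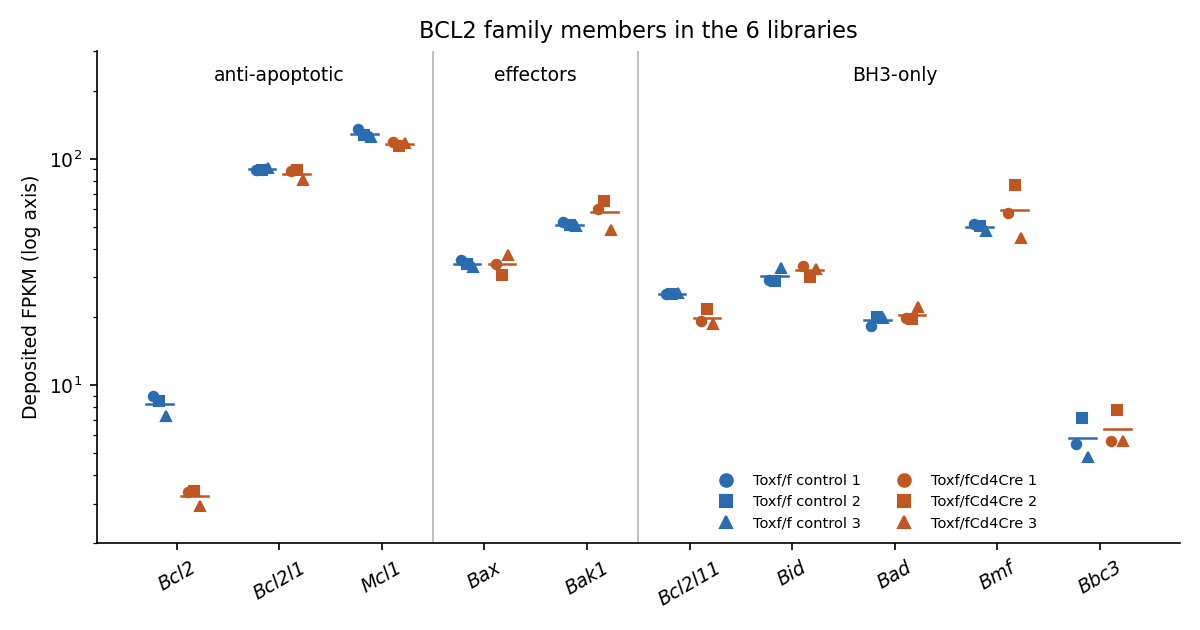
Deposited FPKM (log axis) of the 10 genes in each library, with Toxf/f controls in blue, Toxf/fCd4Cre in orange, symbols for replicates 1 to 3 and a line at the group mean. Bcl2 is the only gene with a wide gap between the groups (7.3 to 8.95 against 2.93 to 3.42 FPKM), and the Cd4Cre values of Bmf spread from 44.7 to 76.9 FPKM.

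The genotype comparison asks which of these genes differ between Toxf/fCd4Cre and Toxf/f libraries. By the edgeR quasi-likelihood test with Benjamini-Hochberg adjustment over all 13934 genes, 2 of the 10 fell, Bcl2 and Bcl2l11, and 0 rose. Of all genes tested, 2.96% fell and 1.15% rose, 4.11% in all. At an unadjusted p under 0.05, 3 of the 10 were lower and 2 higher, beside 9.0% and 7.33% of all genes. DESeq2 also called 2 lower and 0 higher, beside 3.44% and 1.39% of all genes. The 10 log2 fold changes had a median of 0.01, which was also the median of all genes tested. In 3 genes, Bcl2, Bcl2l11 and Mcl1, every Cd4Cre library was under every control, which 10.6% of all genes show, and in 0 genes the reverse, which 11.3% show. Of the 8 genes that did not pass, 5 had estimates within 10% of the control level, and their 95% intervals lay between -0.32 and 0.61 on the log2 scale for all 8 (the plot of fold changes with intervals).

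**Figure D2:**
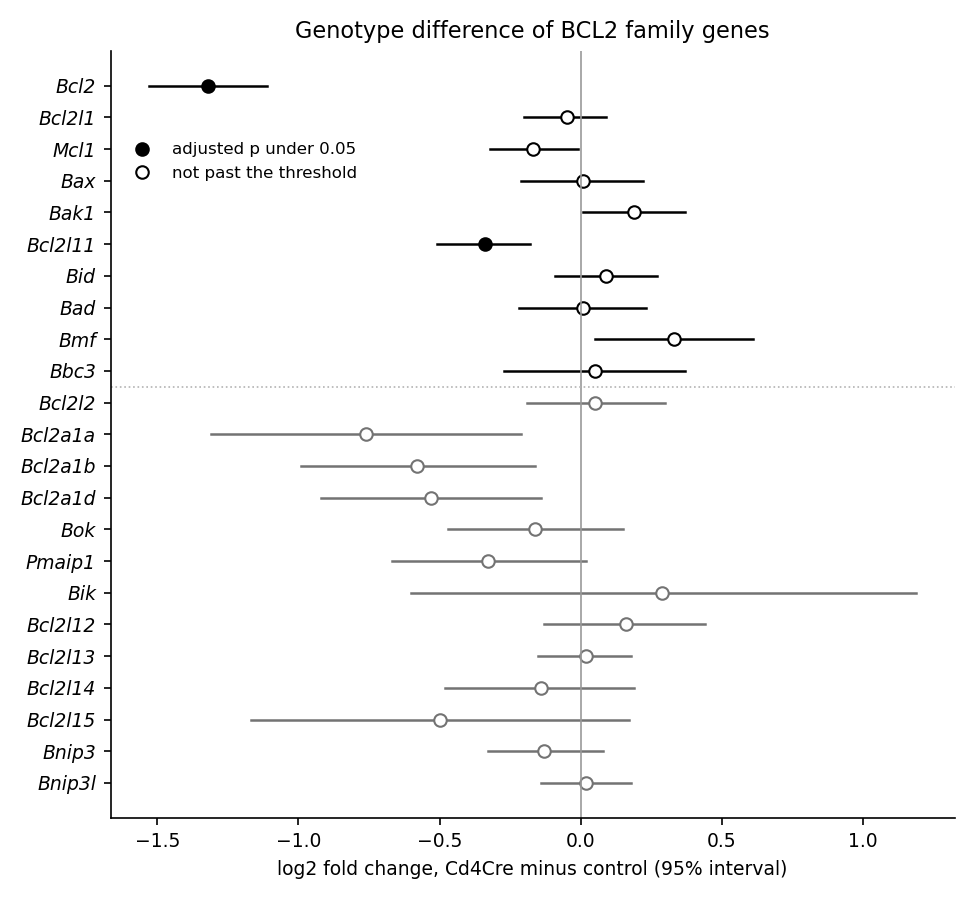
Log2 fold change, Cd4Cre minus control, with its 95% interval for the 10 genes (black) and 13 further tested family genes (grey). Filled points passed an adjusted p of 0.05, and these were Bcl2 at -1.32 and Bcl2l11 at -0.34.

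Bcl2 encodes the founding survival protein of the family. Control replicates 1 to 3 had 62.3, 59.3 and 52.2 CPM of Bcl2, and Cd4Cre replicates 1 to 3 had 24, 24.1 and 21.4 CPM. The groups were separated by a gap larger than the range within either. Its Cd4Cre mean of 23.2 ± 1.56 CPM (SD, n = 3) was 40% of the control mean of 57.9 ± 5.21 CPM. The log2 fold change was -1.32 (SE 0.09, 95% interval -1.53 to -1.11, edgeR adjusted p = 1.24e-05), and 0.99% of tested genes had a lower fold change. The two-sided exact permutation p was 0.1, the floor of a design with 3 libraries a side. Of the 3 summed anti-apoptotic FPKM values, Bcl2 made up 3.64% ± 0.323 in the controls and 1.58% ± 0.104 in Cd4Cre. In libraries from mice aged 3 weeks alone, 2 against 2, the log2 fold change was -1.29 (edgeR adjusted p = 0.00227). An antisense gene, D630008O14Rik, overlaps an exon of Bcl2 in GENCODE M21, and the use of strand in counting is not given in the sources used here.

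Markers of mature T cells, in which Bcl2 is known to be high, moved with Bcl2. Of 17 such markers, all of them tested, 11 fell, 0 rose and 6 did not pass (14 lower and 1 higher at an unadjusted p under 0.05, 12 lower and 0 higher by DESeq2). Their summed level was 1860 to 2040 CPM in the controls and 1410 to 1440 CPM in Cd4Cre, and 0 of the 17 were undetected throughout. Among them Ccr7, the receptor that guides thymocytes to the medulla, had a log2 fold change of -1.33, close to that of Bcl2. Of 12 tested B and plasma cell markers 5 fell and 1 rose, with a summed level of 177 to 192 CPM in the controls and 78.2 to 99.6 CPM in Cd4Cre. Of 10 tested gamma-delta T cell markers 7 rose, and their sum went from 631 to 644 CPM in the controls to 934 to 984 CPM in Cd4Cre. Of 10 DP markers 1 rose, and their sum was 11600 to 11900 CPM in the controls and 12500 to 13000 CPM in Cd4Cre. At an unadjusted p under 0.05, 5 of these 10 were higher and 0 lower, and DESeq2 called 2 higher. Of 10 early DN markers 1 fell (196 to 224 CPM in sum against 189 to 205), with 3 lower and 2 higher at an unadjusted p under 0.05. Of 16 dendritic cell and macrophage markers 1 fell (876 to 936 CPM in sum against 657 to 710). It was Lyz2, whose mean went from 338 to 134 CPM and which made up most of the gap between the sums. At an unadjusted p under 0.05, 4 of the 16 were lower and 3 higher. Of 15 epithelial and stromal markers 6 rose and 1 fell (2360 to 2500 CPM in sum against 2800 to 3070). Among these calls only those of Psmb11 and Krt18 held whichever single library was left out (edgeR adjusted p of at most 0.0229 and 0.0343). In the other marker lists, the calls of Ms4a4b (mature T), Sdc1 (B and plasma) and Aqp11 (DP) also ended without some single libraries. Of 9 tested NK and cytotoxic markers 3 rose (90 to 104 CPM in sum against 99 to 144). In bulk libraries, fewer cells of a type and less RNA per cell cannot be told apart, and the part of these cell types in the change of Bcl2 was not tested.

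Bcl2l1 and Mcl1, the abundant anti-apoptotic genes, did not pass the test. Bcl2l1 was at 204, 208 and 211 CPM in control replicates 1 to 3, against 204, 207 and 190 CPM with Cd4Cre, where only replicate 3 lay outside the control range. Its log2 fold change of -0.05 had a 95% interval of -0.2 to 0.09, which holds no change as large as that of Bcl2. Mcl1, whose short-lived protein is required by thymocytes at many stages, was at 362, 350 and 373 CPM in control replicates 1 to 3, against 322, 307 and 338 CPM with Cd4Cre. All 3 Cd4Cre values were under the controls, with a log2 fold change of -0.17 (95% interval -0.32 to -0.01, edgeR adjusted p = 0.262). The summed FPKM of Bcl2, Bcl2l1 and Mcl1 was 227 ± 5.13 in the controls and 206 ± 4.88 in Cd4Cre. Most of that gap lay in Mcl1, from 129 to 116 FPKM, while Bcl2 went from 8.27 to 3.25 FPKM.

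Bax and Bak1, either of which can open the mitochondrial membrane, did not pass the test. Bax was at 31.7, 31.5 and 30.3 CPM in control replicates 1 to 3, against 30.9, 27.9 and 35.1 CPM with Cd4Cre. Its log2 fold change was 0.01 (95% interval -0.21 to 0.22), with a sign that changed between settings. Bak1 was at 82.6, 81.3 and 78.5 CPM in control replicates 1 to 3, against 94.7, 101 and 81.3 CPM with Cd4Cre. Cd4Cre replicates 1 and 2 lay above all controls, and replicate 3 within them. The log2 fold change of Bak1 was 0.19 (SE 0.08, edgeR adjusted p = 0.289).

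Bcl2l11 was the BH3-only gene that fell. It was at 109, 105 and 116 CPM in control replicates 1 to 3, against 86, 92.9 and 80.6 CPM with Cd4Cre, without overlap. The mean went from 110 ± 5.72 to 86.5 ± 6.16 CPM (SD, n = 3), 78.8% of the control level. The log2 fold change was -0.34 (SE 0.08, 95% interval -0.51 to -0.18, edgeR adjusted p = 0.0247). The deposited FPKM values were 25.2, 25.2 and 25.6 against 19.3, 21.7 and 18.6. The call ended without any 1 of the controls or without Cd4Cre replicate 1 (edgeR adjusted p = 0.0669 to 0.123), with estimates between -0.4 and -0.3 when any single library was left out. On log2(FPKM + 0.1) values limma gave an adjusted p of 0.0535.

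Bmf, a BH3-only gene whose protein is held at the cytoskeleton, was the most abundant of its class by FPKM. It was at 196, 193 and 182 CPM in control replicates 1 to 3, against 240, 290 and 186 CPM with Cd4Cre. As for Bak1, Cd4Cre replicates 1 and 2 were above all controls and replicate 3 was not. The SD was 7.54 CPM in the controls and 52 CPM in Cd4Cre, and the log2 fold change was 0.33 (SE 0.13, edgeR adjusted p = 0.221). Without Cd4Cre replicate 3, both genes passed the test. Bmf then had a log2 fold change of 0.48 (edgeR adjusted p = 0.0044) and Bak1 of 0.27 (edgeR adjusted p = 0.0226), in a fit that called 3.36% of 14150 genes higher and 8.97% in either direction (the plot of estimates with each library left out). Without Cd4Cre replicate 2 the estimates were 0.16 and 0.12. Marker sums varied among Cd4Cre replicates 1 to 3 as well, and not in 1 pattern: B and plasma cell markers summed to 99.6, 86.4 and 78.2 CPM, NK and cytotoxic markers to 137, 99 and 144 CPM, and epithelial and stromal markers to 3070, 3070 and 2800 CPM. Their part in the difference of Bmf and Bak1 was not tested. The count and FPKM columns differed for Bmf, whose log2 fold change was 0.22 on log2(FPKM + 0.1) values.

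**Figure D3:**
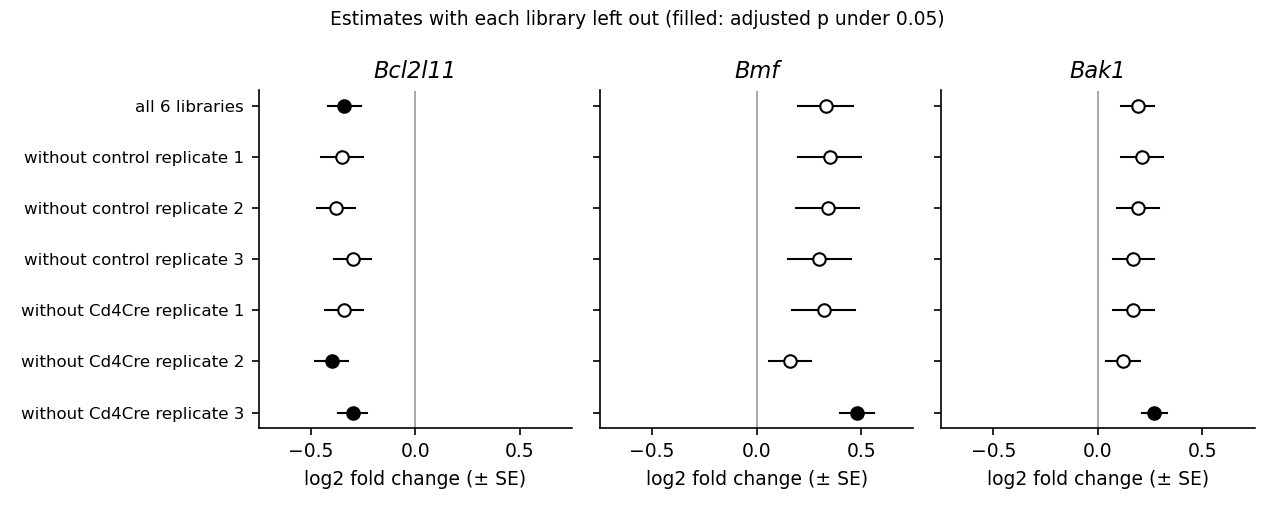
Log2 fold change (Cd4Cre minus control, bars ± SE) of Bcl2l11, Bmf and Bak1 with all 6 libraries and with each library left out, filled where the adjusted p was under 0.05. Bcl2l11 is filled in 3 of the 7 fits, and Bmf and Bak1 are filled in the fit without Cd4Cre replicate 3 alone.

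The other BH3-only genes did not pass. Bid, which links death receptors to mitochondria, was at 62.9, 62.8 and 72.7 CPM in control replicates 1 to 3, against 73.1, 66 and 71.9 CPM with Cd4Cre (log2 fold change 0.09, 95% interval -0.09 to 0.27). Bad, which is regulated by growth factor signalling, ranged from 20.1 to 22.1 CPM in the controls and from 20 to 23.3 CPM in Cd4Cre (0.01, interval -0.22 to 0.23). Bbc3, a target of p53, ranged from 8.85 to 10.9 CPM and from 9.11 to 12 CPM (0.05, interval -0.27 to 0.37). All 3 overlapped between the genotypes. Bid shares exonic bases on the opposite strand with Bcl2l13 (121 and 122 CPM), and Bad with Gpr137, so reads of these pairs may be shared.

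The ratio of anti-apoptotic to pro-apoptotic transcripts was computed within each library from FPKM values, as a description without a test (the plot of ratios by library). Bcl2 to Bax was 0.252, 0.249 and 0.22 in the controls and 0.0985, 0.111 and 0.0778 in Cd4Cre. Bcl2 to Bcl2l11 was 0.354, 0.339 and 0.285 in the controls and 0.176, 0.158 and 0.158 in Cd4Cre. This ratio was lower in Cd4Cre although both genes fell, with a log2 difference of -0.99. The 3 anti-apoptotic genes summed to 1.07, 1.03 and 1.04 times the 7 pro-apoptotic genes in the controls and to 0.914, 0.817 and 0.954 times in Cd4Cre. None of the 3 ratios overlapped between the genotypes. Bcl2 to Bax, with a log2 difference of -1.34, largely restates the fall of Bcl2 itself (-1.32), and Bcl2 to Bcl2l11 holds Bcl2 as well. In the summed ratio the genes of highest FPKM, Mcl1 and Bcl2l1, did not pass the test. Of single genes, 10.6% had every Cd4Cre library under every control, and the share among other ratios was not computed. The summed pro-apoptotic level alone did overlap, at 214 to 218 FPKM in the controls and 210 to 252 FPKM in Cd4Cre.

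**Figure D4:**
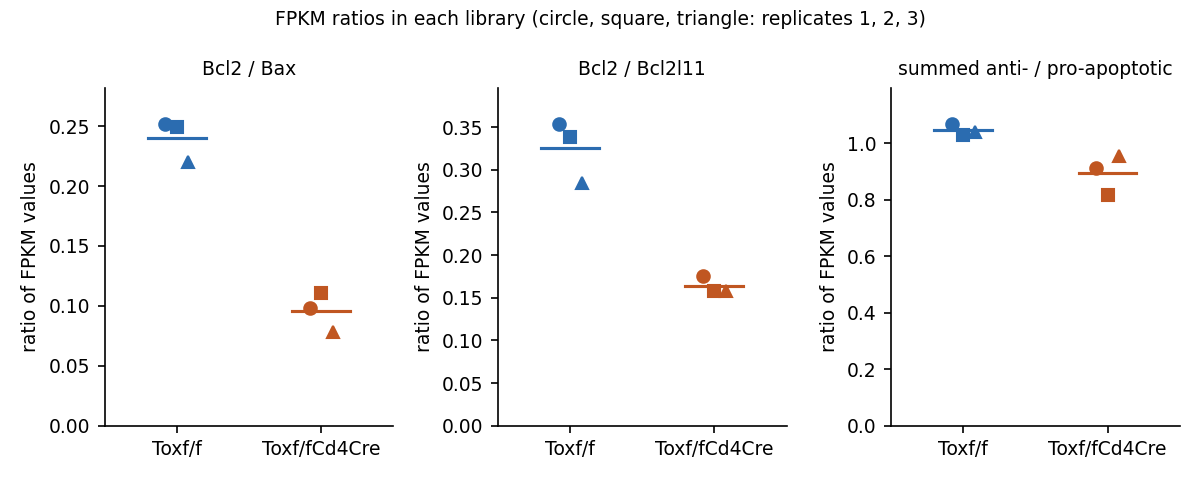
Ratios of deposited FPKM values in each library, with Toxf/f controls in blue and Toxf/fCd4Cre in orange, on axes that start at 0 and with a line at the group mean. Bcl2 to Bax averaged 0.24 and 0.0958, Bcl2 to Bcl2l11 0.326 and 0.164, and the summed ratio 1.05 and 0.895.

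The wider family and the pathway around it are given by the same test, by which 4.11% of all genes passed. Of 15 further BCL2 family genes 13 were tested, and 0 passed in the edgeR test, with 3 lower at an unadjusted p under 0.05. These 3 were the Bcl2a1 copies, which encode the anti-apoptotic protein A1: Bcl2a1a, Bcl2a1b and Bcl2a1d had log2 fold changes of -0.76, -0.58 and -0.53 (edgeR adjusted p = 0.139 to 0.154). DESeq2 called Bcl2a1b (adjusted p = 0.0477). Without Cd4Cre replicate 3, in which Bcl2a1b was at 17.2 CPM beside 13 and 8.66 CPM in replicates 1 and 2, edgeR also called Bcl2a1b (log2 fold change -0.83, adjusted p = 0.00688) and Bcl2a1a (-0.93, adjusted p = 0.0497), where 5.61% of all genes were lower. The copies are nearly identical, so the division of reads among them is uncertain. Pmaip1, which encodes the BH3-only protein NOXA, was at 7.97 and 6.36 CPM (log2 fold change -0.33, edgeR adjusted p = 0.343). Hrk and Bcl2l10 were too low to test.

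Downstream of the mitochondrion, 1 of 21 genes of cytochrome c release, caspases and their inhibitors passed, with a list median of 0.02 beside 0.01 over all genes. It was Birc3, an inhibitor of apoptosis, at 68.8, 66.5 and 64.8 CPM in control replicates 1 to 3, against 55.4, 54.4 and 53.6 CPM with Cd4Cre (log2 fold change -0.29, edgeR adjusted p = 0.0316). Leaving out a library ended this call in 5 of 6 cases, the exception being Cd4Cre replicate 3 (edgeR adjusted p of up to 0.182). Apaf1, the scaffold of the apoptosome, had a log2 fold change of -0.01 and did not pass. In the death receptor pathway 1 of 12 genes passed, Traf1, an adaptor of TNF receptors, which fell from 20.3 ± 1.02 to 13.5 ± 0.745 CPM (SD, n = 3, log2 fold change -0.59, edgeR adjusted p = 0.00613). Cflar, which encodes the caspase-8 inhibitor FLIP, was at 157 and 134 CPM and did not pass (edgeR adjusted p = 0.0939). It passed without Cd4Cre replicate 3 (log2 fold change -0.26, edgeR adjusted p = 0.0363).

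Of 26 genes known to act on the family from upstream, 3 fell and 0 rose, beside 2.96% and 1.15% of all genes. Their median log2 fold change was -0.06. At an unadjusted p under 0.05, 6 were lower and 4 higher, beside 9.0% and 7.33% of all genes. DESeq2 called 4 lower and 1 higher, beside 3.44% and 1.39% of all genes. Nr4a1 and Nr4a3, nuclear receptors induced by T cell receptor signals, the former known to bind BCL2 protein, had log2 fold changes of -1.02 and -0.80. The gene that DESeq2 called higher was Myb, a regulator of DP thymocyte survival (log2 fold change 0.28, edgeR adjusted p = 0.0638). Rel, an NF-kB subunit, was at 46.9, 49.3 and 45.9 CPM in control replicates 1 to 3, against 28.2, 31 and 29.7 CPM with Cd4Cre (log2 fold change -0.68, edgeR adjusted p = 0.000463). Il7r, the interleukin-7 receptor whose signal raises BCL2, was at 41.1, 46.2 and 35.7 CPM and at 26.9, 24.6 and 38.1 CPM, with overlap through Cd4Cre replicate 3 (log2 fold change -0.46, edgeR adjusted p = 0.141). It was the fourth gene that DESeq2 called lower (adjusted p = 0.0422), and without Cd4Cre replicate 3 edgeR called it as well (log2 fold change -0.67, adjusted p = 0.00322). Without that library 5.61% of all genes were called lower and 3.36% higher. In that fit Myb (0.29, edgeR adjusted p = 0.0315) and Rela, another NF-kB subunit (0.26, edgeR adjusted p = 0.0307), passed too. So did Usp9x, a deubiquitinase that stabilises MCL1 (-0.26, edgeR adjusted p = 0.0384). Without Cd4Cre replicate 2, where 430 of 14138 genes were lower, Foxo1, a transcription factor that sustains Il7r, passed (-0.35, edgeR adjusted p = 0.0401). Trp53, which drives Bbc3, and Foxo3, a regulator of Bcl2l11, had log2 fold changes of 0.14 and 0.11 and did not pass.

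Over the 6 libraries, the genes whose log2 CPM profile lay closest to that of Bcl2 were sought among 9205 genes with a mean of at least 10 CPM, by the root mean square difference after centring on the control mean. Of the 5 nearest, 4 are given here: Samhd1, a nucleotide triphosphatase that restricts viruses (difference 0.077), Ifi206, an interferon-inducible gene (0.081), Ccr7 (0.11) and Nlrc5, the transactivator of MHC class I genes (0.115). Samhd1 was at 109, 107 and 97.8 CPM in control replicates 1 to 3, against 47.7, 46.9 and 39.4 CPM with Cd4Cre. These 4 had log2 fold changes between -1.33 and -1.21, beside -1.32 for Bcl2. The measure follows the genotype gap for the most part, so it lists genes of like fold change.

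**Figure D5:**
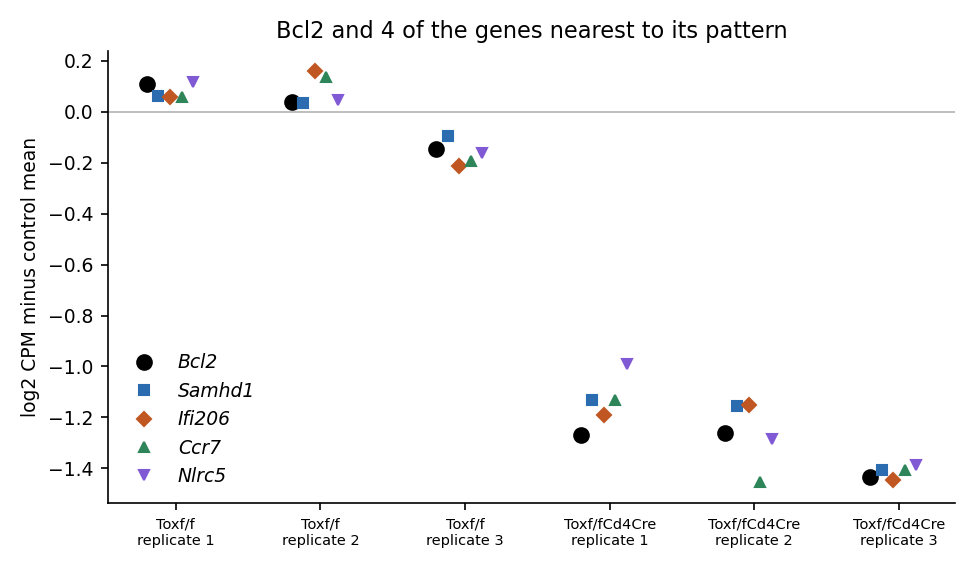
Log2 CPM minus the control mean in each of the 6 libraries for Bcl2 (black circles) and 4 of the 5 genes with the smallest root mean square difference from it. The 5 genes drawn stay near 0 in the controls and lie between -1.454 and -0.991 in Cd4Cre.

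The promoters of the genes that fell, Bcl2 and Bcl2l11, are shown as the 250 bases before a RefSeq start (build GRCm38.p6; for Bcl2l11 the first of 2 listed starts), with matches to the GC box, GGGCGG on either strand, in capitals. Bcl2 spans chr1:106714291-106714540 on the minus strand and Bcl2l11 spans chr2:128125788-128126037 on the plus strand.
Bcl2: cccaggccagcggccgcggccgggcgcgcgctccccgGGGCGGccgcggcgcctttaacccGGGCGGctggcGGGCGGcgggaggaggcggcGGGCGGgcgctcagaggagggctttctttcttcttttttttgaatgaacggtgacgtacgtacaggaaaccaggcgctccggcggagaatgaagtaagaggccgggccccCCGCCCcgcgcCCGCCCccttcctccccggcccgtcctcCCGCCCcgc
Bcl2l11: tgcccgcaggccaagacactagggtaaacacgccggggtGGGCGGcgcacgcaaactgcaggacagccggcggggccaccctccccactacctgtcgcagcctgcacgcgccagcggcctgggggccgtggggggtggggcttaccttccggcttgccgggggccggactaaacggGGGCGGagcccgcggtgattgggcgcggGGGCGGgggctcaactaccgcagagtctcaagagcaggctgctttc

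The Bcl2 window held 7 matches and the Bcl2l11 window shown 3, the window of the other Bcl2l11 start held 2, and 32.7% of 32851 mouse promoter windows of this length hold at least 1. Of 18 such windows of the 10 genes, 10 held a match, among them those of Bax, Bid and Bbc3, which did not pass the test. The Bbc3 windows held 5, 1 and 7 matches. The windows shown were rich in G and C, at 74.8% for Bcl2 and 72% for Bcl2l11, above 95.8% and 93.1% of all windows. A TATAAA match was in 0 of the 18 and in 12.4% of all windows. These matches describe the letters in the windows only.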

How the data were processed

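RNA was extracted with Trizol and made into libraries with NEBNext Ultra reagents, per the labels' protocols. The tables the authors deposited, 1 a library, hold estimated counts and FPKM values per Ensembl gene, in columns so named per the file headers. The estimated counts sum to different totals and were taken as not normalized. Fastp 0.18.0, HISAT2 and StringTie 1.3.1 are named per the submitters' processing notes; genome build, counting program and use of strand: not given in the sources used here. Between 9.27% and 9.87% of the estimated counts of a library were not whole and were rounded.

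The filter was filterByExpr, with a count of at least 10 and a total of at least 15. Kept genes were scaled by TMM and tested, Cd4Cre minus control, with the edgeR 4.0.16 quasi-likelihood test in R 4.3.3, two-sided, with Benjamini-Hochberg adjustment over 13934 genes and a threshold of 0.05, after a check on simulated counts. Standard errors and 95% intervals were derived from the quasi-likelihood F. Alternatives used DESeq2 1.42.0 and limma 3.58.1. Named genes are the 10 members, Tox, list genes past the threshold or, in a pathway list with none, up to 4 of smallest p, and the 5 nearest to Bcl2, of which 1 is not reported here; Apaf1, Cflar, Myb, Il7r, Rela, Usp9x, Foxo1, Trp53 and Foxo3 were named outside this rule, after their values were seen. Members, lists and tests were chosen with earlier results of these data known. Replicates were not paired.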

Additional observations from a re-analysis of the deposited data

How the results depend on the processing

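Bcl2 kept its direction and its call in all 15 alternative settings, with log2 fold changes from -1.39 to -1.12, and the log2 differences of the 3 ratios kept their direction and moved by less than the spread between libraries with CPM in place of FPKM or with any single library left out. The number of the 10 genes that fell was 1 instead of 2, because the call of Bcl2l11 ended, with limma on log2(FPKM + 0.1) or log2(FPKM + 1), with age as a term, in the 3-week libraries alone and with a replicate block; it was 1 to 2 when single libraries were left out, where the number that rose was 0 to 2. With the replicate block, Bcl2l11 had an adjusted p of 0.0775 and Bcl2 of 0.000156, and 318 genes were lower and 122 higher. This block rests on shared numbers and on age, since replicate 1 was from mice aged 4 weeks in both genotypes. Same-numbered libraries did not all deviate together (correlations of 0.163, -0.122 and -0.162 for replicates 1 to 3). Differently numbered libraries had correlations from -0.379 to 0.369, and the cause of lost calls was not tested. Over all genes, 412 were lower and 160 higher. Leaving out single libraries gave 231 to 794 lower and 67 to 475 higher, the 3-week libraries alone 123 and 28 (fewer samples), and limma 102 and 101 higher with pseudocounts of 0.1 and 1. Per kilobase of the longest transcript, Bcl2 was 4.14% of the anti-apoptotic sum in the controls and 1.84% in Cd4Cre. Signs turned only near 0: Bax was at -0.00026 with DESeq2 size factors, -0.00035 with DESeq2, -0.0048 with a mean of at least 5 CPM, -0.0087 and -0.0084 with limma at pseudocounts 0.1 and 1, and at -0.015 without control replicate 3; Bad was at -0.0039 with a mean of at least 5 CPM and at -0.028 without control replicate 3, and Bbc3 at -0.026 without that library. Leaving out single libraries gave -0.085 to 0.081 for Bax, -0.066 to 0.045 for Bad and -0.089 to 0.12 for Bbc3.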
